A study of Bos taurus with 22 samples.

Results

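Transcripts of 8 genes of vitamin A uptake and retinoid metabolism, SCARB1, BCO1, RBP2, LRAT, RETSAT, RDH11, DHRS3 and ALDH1A1, were followed in the jejunal mucosa of cattle. They were looked up by gene name and are 8 of the 27570 genes counted. They were chosen with their values under glucagon-like peptide 2 (GLP-2, an intestinal growth hormone) known, so their GLP-2 differences are described below without a test. RNA was sequenced from the scraped jejunal mucosa of 22 Holstein steers of about a year of age, each steer being 1 sample. Every steer received 3.94 g of raw corn starch per kg of body weight (BW) daily into the abomasum for 7 d. Control steers (n = 5) received water in the abomasum and bovine serum albumin (BSA) in saline under the skin. GLP-2 steers (n = 5) received water and 100 µg of GLP-2 per kg BW daily. Casein steers (n = 6) received 1.30 g of sodium caseinate per kg BW daily with BSA, and casein + GLP-2 steers (n = 6) received both casein and GLP-2. Replicate numbers are those of the 6 BW blocks in which steers were allotted to treatments.

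Vitamin A reaches the enterocyte as carotenoids, which SCARB1 helps to take up and BCO1 cleaves to retinal, or as retinol released from dietary esters. Retinal is reduced to retinol, retinol is bound by RBP2 and esterified by LRAT, and the esters leave with chylomicrons. A part of the retinal is oxidized to retinoic acid, the ligand of nuclear receptors. In the intestine, retinoic acid is known to induce ISX, a homeobox factor that represses SCARB1 and BCO1 in mice.

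Counts per steer ranged from 8809666 to 28447810. All 20 villus enterocyte markers listed for the tissue check were detected. Their mean log2 CPM (counts scaled to library size by TMM), termed the villus enterocyte score, was 10.4 ± 0.591 (SD, n = 11) with GLP-2 and 9.08 ± 1.26 (SD, n = 11) with BSA. The summed villus markers ranged from 32160 to 135600 CPM with GLP-2 and from 4201 to 91150 CPM with BSA. The 11 B cell follicle markers, of which 0 were at 0 in every steer of a group, summed to 34.3 to 87.8 CPM with GLP-2 and to 53.0 to 2214 CPM with BSA. Control replicates 1, 3 and 5 and casein replicate 3 had follicle scores above 5 and stand apart from the other steers. Fewer enterocytes in a scraping and less RNA of a gene per enterocyte cannot be told apart in such bulk tissue.

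RBP2 was the most abundant of the 8 transcripts per length, with a mean of 2761 FPKM (fragments scaled to gene length and library size, SD 2016, n = 22), and LRAT the least, with 4.84 FPKM (SD 3.45). Between them lay ALDH1A1 at 415.0 FPKM, RETSAT at 221 FPKM, BCO1 at 140.5 FPKM, DHRS3 at 49.8 FPKM, RDH11 at 26.2 FPKM and SCARB1 at 24.1 FPKM. RBP2 exceeded ALDH1A1 in 21 of 22 steers, and SCARB1 exceeded LRAT in 22 of 22. BCO1 exceeded DHRS3 in only 13 steers and RDH11 exceeded SCARB1 in 13, so neither of these neighbours differed beyond the spread between steers.

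SCARB1 (ENSBTAG00000014269, ARS-UCD1.2 chr17:50929375-51022457, plus strand) encodes the scavenger receptor that takes up carotenoids at the brush border. In control replicates 1 to 5, SCARB1 was at 55.7, 21.6, 107.8, 45.5 and 54.1 CPM, and in GLP-2 replicates 1, 3, 4, 5 and 6 at 36.1, 115.6, 39.4, 50.9 and 22.5 CPM. In casein steers it ranged from 26.2 to 55.7 CPM (median 31.6) and in casein + GLP-2 steers from 24.1 to 251.5 CPM (median 58.1). The groups overlapped, and the 3 GLP-2 injected steers above the highest BSA steer were casein + GLP-2 replicates 1 and 3 and GLP-2 replicate 3. SCARB1 was thus high in single steers rather than throughout a treatment, and the highest steer of each treatment was replicate 3, of the same BW block.

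BCO1 (ENSBTAG00000001026, chr18:7897717-7928436, plus strand) encodes the oxygenase that splits beta-carotene into retinal. In control replicates 1 to 5, BCO1 was at 76.5, 502.0, 89.6, 97.4 and 1.32 CPM, and in GLP-2 replicates 1, 3, 4, 5 and 6 at 34.3, 694.8, 13.7, 44.9 and 142.3 CPM. It ranged from 6.98 to 215.0 CPM in casein steers (median 46.2) and from 38.1 to 1376 CPM in casein + GLP-2 steers (median 484.8). No other of the 8 transcripts varied as much, with a highest steer 1040-fold above the lowest and an SD of 2.23 on the log2 scale within treatments. The 4 steers above every BSA steer were casein + GLP-2 replicates 1, 2 and 3 and GLP-2 replicate 3.

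**Figure D1:**
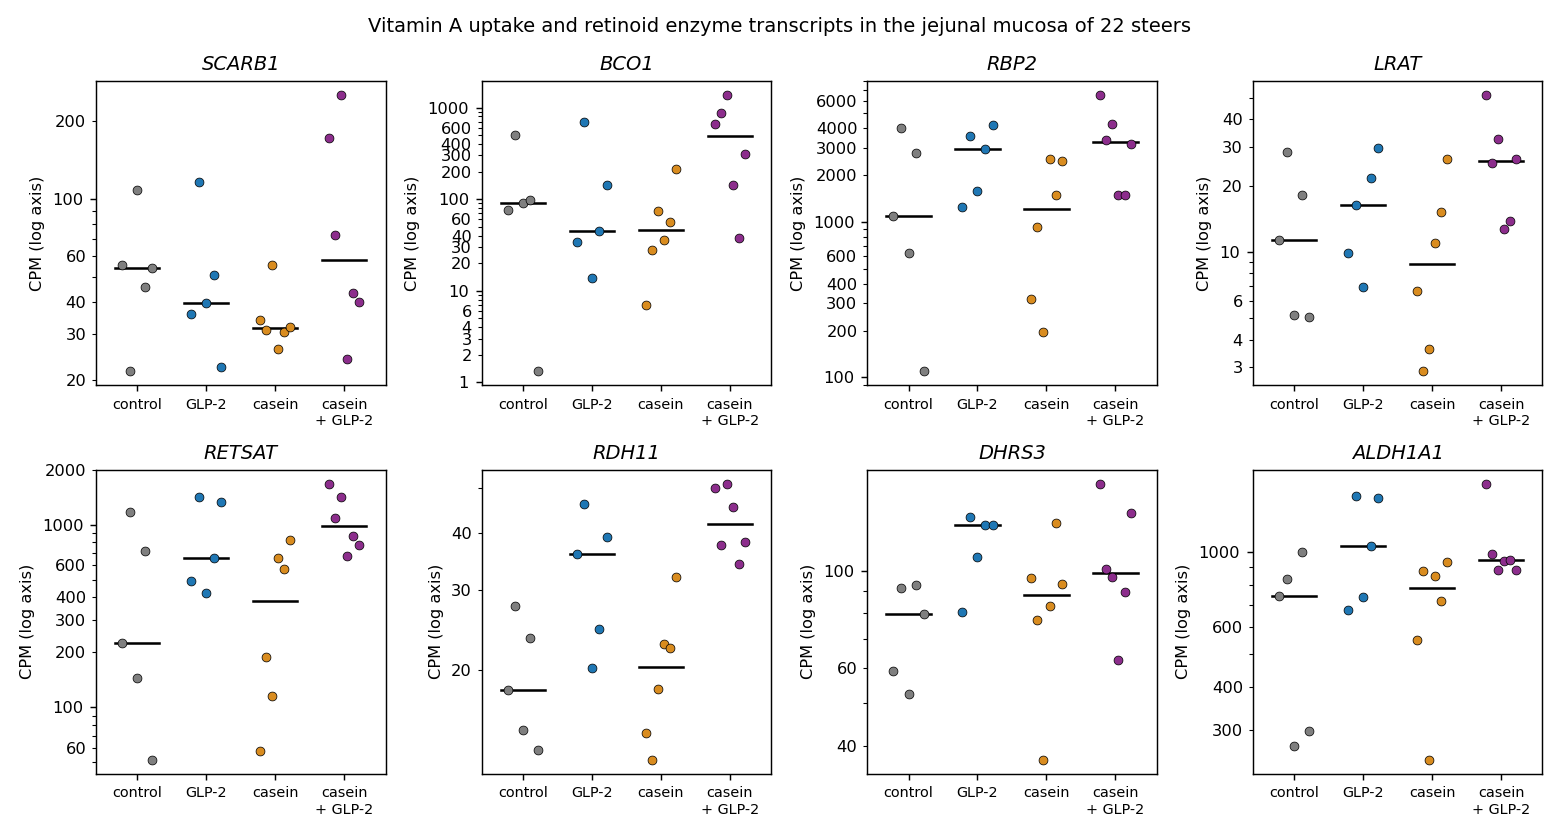
CPM of the 8 transcripts in each steer (points) by treatment, with the treatment median as a line and a log axis in each panel. Of the 8, which were chosen with their GLP-2 values known, RDH11 shows the least overlap between injections (9 of 11 GLP-2 steers above every BSA steer). The share of all genes with as little overlap is not given. BCO1 spans 1.32 to 1376 CPM.

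RBP2 (ENSBTAG00000015056, chr1:129620306-129651650, plus strand) encodes the retinol-binding protein of the enterocyte cytosol. RBP2 was at 1088, 3990.4, 632, 2783 and 109.6 CPM in control replicates 1 to 5, and at 1248, 3545, 1575, 2950.0 and 4199.7 CPM in GLP-2 replicates 1, 3, 4, 5 and 6. In casein steers it ranged from 195.8 to 2552 CPM (median 1215) and in casein + GLP-2 steers from 1488 to 6559 CPM (median 3276). All 11 GLP-2 injected steers lay above the BSA median, and 6 BSA steers lay below the lowest GLP-2 injected steer. The upper ends overlapped, since 3 GLP-2 injected steers exceeded the highest BSA steer, control replicate 2.

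LRAT (ENSBTAG00000017167, chr17:2668435-2675467, minus strand) encodes lecithin:retinol acyltransferase, which makes retinyl esters. LRAT ranged from 5.04 to 28.5 CPM in control steers (median 11.3), from 6.90 to 29.6 CPM in GLP-2 steers (median 16.2), from 2.87 to 26.5 CPM in casein steers (median 8.83) and from 12.8 to 51.6 CPM in casein + GLP-2 steers (median 25.8). The groups overlapped, with 9 of 11 GLP-2 injected steers above the BSA median and 3 above the highest BSA steer.

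RETSAT (ENSBTAG00000021934, chr11:49642200-49656929, plus strand) encodes retinol saturase. RETSAT was at 224, 1174.5, 144.5, 721 and 51.5 CPM in control replicates 1 to 5, and at 494, 1417, 424, 658 and 1334 CPM in GLP-2 replicates 1, 3, 4, 5 and 6. It ranged from 57.8 to 830.5 CPM in casein steers (median 381) and from 674 to 1682 CPM in casein + GLP-2 steers (median 980.1). As for RBP2, all 11 GLP-2 injected steers lay above the BSA median, and 5 BSA steers exceeded the lowest GLP-2 injected steer.

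RDH11 (ENSBTAG00000001950, chr10:79556432-79566949, minus strand) encodes a short-chain dehydrogenase that reduces retinal to retinol. RDH11 was at 18.1, 27.6, 14.7, 23.5 and 13.3 CPM in control replicates 1 to 5, and at 35.9, 46.2, 20.2, 24.6 and 39.1 CPM in GLP-2 replicates 1, 3, 4, 5 and 6. In casein steers it ranged from 12.7 to 31.97 CPM (median 20.3) and in casein + GLP-2 steers from 34.1 to 51.2 CPM (median 41.9). All casein + GLP-2 steers lay above all casein steers, and of the 11 GLP-2 injected steers only GLP-2 replicates 4 and 5 did not exceed the highest BSA steer. The 8 transcripts were chosen with these values known, and the share of all genes with as little overlap is not given here. Counts of overlap are therefore descriptions of the steers, for RDH11 and for the other transcripts. Its SD within treatments was 0.42 on the log2 scale, the smallest of the 8 transcripts.

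DHRS3 (ENSBTAG00000024493, chr16:41110223-41160245, plus strand) encodes a second retinal reductase. DHRS3 ranged from 52.5 to 92.7 CPM in control steers (median 79.7), from 80.8 to 132.8 CPM in GLP-2 steers (median 127.4), from 37.1 to 128.9 CPM in casein steers (median 88.2) and from 62.8 to 158.2 CPM in casein + GLP-2 steers (median 99.1). Its lowest steer was casein replicate 3, and 4 of 5 GLP-2 steers lay above every control steer. ALDH1A1 (ENSBTAG00000008103, chr8:49053228-49106706, minus strand) encodes a retinal dehydrogenase that forms retinoic acid. ALDH1A1 ranged from 269.5 to 1002 CPM in control steers (median 742), from 675 to 1454 CPM in GLP-2 steers (median 1040.0), from 245 to 932 CPM in casein steers (median 783) and from 886 to 1585 CPM in casein + GLP-2 steers (median 943). The lowest 3 steers were casein replicate 3 and control replicates 3 and 5, and 4 of the 11 GLP-2 injected steers exceeded the highest BSA steer.

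Between the 11 GLP-2 injected and the 11 BSA injected steers, all 8 transcripts were higher with GLP-2, a direction fixed by the choice of genes. The quasi-likelihood test of edgeR called 5.13% of all 13928 genes higher and 8.37% lower at an adjusted p of at most 0.05. The log2 fold change was 1.90 (SE 0.79) for BCO1, 1.22 (SE 0.46) for RETSAT, 1.06 (SE 0.48) for RBP2 and 0.95 (SE 0.18) for RDH11. It was 0.91 (SE 0.39) for LRAT, 0.83 (SE 0.39) for SCARB1, 0.68 (SE 0.25) for ALDH1A1 and 0.47 (SE 0.18) for DHRS3. The median of the 8 was 0.93, beside 0.0079 over all genes tested. BCO1 had both the largest difference and the largest SE of the 8. As the genes were chosen with this comparison known, the differences are not ranked against their SE. The SCARB1 difference was 0.49 without casein + GLP-2 replicate 3.

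Within the water infusion, GLP-2 steers differed from control steers by a log2 fold change of 0.90 for RETSAT, 0.77 for RDH11, 0.77 for ALDH1A1, 0.65 for RBP2, 0.62 for DHRS3, 0.30 for LRAT, 0.28 for BCO1 and -0.10 for SCARB1. Within the casein infusion, casein + GLP-2 steers differed from casein steers by 3.03 for BCO1, 1.52 for SCARB1, 1.43 for RETSAT, 1.36 for RBP2, 1.31 for LRAT, 1.07 for RDH11, 0.58 for ALDH1A1 and 0.32 for DHRS3. SCARB1 was thus the one transcript of the 8 without a positive difference in steers infused with water.

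**Figure D2:**
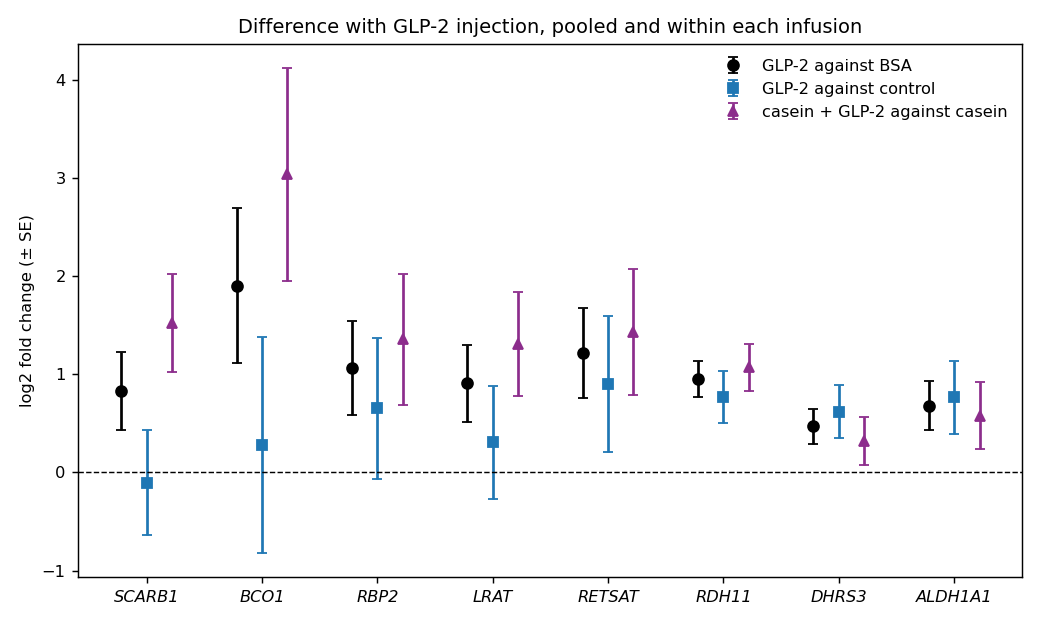
Log2 fold change (± SE) of the 8 transcripts with GLP-2, for all steers pooled over infusion (11 against 11), for GLP-2 against control (5 against 5) and for casein + GLP-2 against casein (6 against 6). The pairs of fold changes lie far apart for BCO1 (0.28 and 3.03) and SCARB1 (-0.10 and 1.52) and close together for RDH11 (0.77 and 1.07).

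Villus enterocyte markers moved with the same comparison: all 20 had a positive log2 fold change with GLP-2 and 4 passed the threshold. With the villus enterocyte score as a covariate, the log2 fold change was 0.068 for BCO1, -0.042 for RBP2, 0.047 for LRAT, 0.14 for RETSAT, 0.099 for ALDH1A1 and 0.25 for DHRS3. RDH11 kept 0.52 and SCARB1 0.81 under that covariate. Of the B cell follicle markers, 9 of 10 tested fell with GLP-2. Without the 4 follicle-rich steers, the log2 fold change was 1.57 for BCO1, 1.33 for SCARB1, 0.80 for RDH11, 0.73 for RETSAT, 0.58 for RBP2, 0.54 for LRAT, 0.36 for ALDH1A1 and 0.23 for DHRS3. With the B cell follicle score as a covariate, SCARB1 had 1.45, BCO1 0.98, RDH11 0.64, RETSAT 0.27, LRAT 0.10, ALDH1A1 0.10, DHRS3 0.080 and RBP2 0.027. Both scores moved with GLP-2 themselves, so a fit with a score as a covariate also takes out any GLP-2 difference that runs along with that score. The part of either cell type in the differences was not tested.

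The wider retinoid pathway was read from a list of 60 other genes in 8 roles, of which 58 were in the table and 44 were tested. With GLP-2, 2 of the 44 rose (4.55%, beside 5.13% of all genes) and 5 fell (11.4%, beside 8.37%). At an unadjusted p of at most 0.05 the counts were 10 higher and 5 lower, beside 2296 higher and 2521 lower of all 13928 genes. The unadjusted counts of the list thus leaned higher, while those of all genes leaned lower. At the adjusted threshold the list is near the background in both directions, and its median log2 fold change was 0.16. It leaves out the 8 transcripts, which were chosen with their GLP-2 values known. Its shares therefore do not describe the retinoid pathway as a whole. BCO2, which cleaves carotenoids off centre, rose by 1.49 on the log2 scale (SE 0.40, adjusted p = 0.0255), from 187 ± 132 to 514 ± 300.0 CPM (SD, n = 11 each). CES2, a carboxylesterase able to release retinol from esters, rose by 0.84 (SE 0.27, adjusted p = 0.0421). BCO2 lost its call without casein + GLP-2 replicate 1, and CES2 kept its call in 10 of the 22 fits that left out 1 steer. With the villus enterocyte score as a covariate, the log2 fold change was 0.41 for BCO2 and 0.14 for CES2. With the B cell follicle score as a covariate it was 0.66 for BCO2 and 0.27 for CES2. CES2 belongs to a family of carboxylesterase genes, and whether its reads were shared with related genes was not tested.

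The 5 genes that fell were STRA6, a retinol transporter of the cell membrane (log2 fold change -3.02, SE 0.71, adjusted p = 0.0202), CRABP1, a retinoic acid binding protein (-2.50, SE 0.62, adjusted p = 0.0226), RARG, a retinoic acid receptor (-0.997, SE 0.28, adjusted p = 0.0266), RDH13, a mitochondrial retinol dehydrogenase (-0.92, SE 0.30, adjusted p = 0.0433), and TGM2, a transglutaminase induced by retinoic acid (-1.37, SE 0.46, adjusted p = 0.0494). All 5 were scarce, with mean levels from 0.957 FPKM for STRA6 to 2.80 FPKM for RDH13. STRA6 was at 12.03, 13.0, 21.3 and 17.8 CPM in the 4 follicle-rich steers and at most 4.90 CPM in the other BSA steers. With the B cell follicle score as a covariate, the log2 fold change was 0.13 for STRA6, -0.20 for CRABP1, -0.71 for RARG, -0.43 for RDH13 and 0.66 for TGM2. STRA6 and CRABP1 kept their calls in 22 of 22 fits that left out 1 steer, RDH13 in 7 and TGM2 in 6. RARG kept its call in 18, losing it without control replicate 3, casein replicate 1, casein + GLP-2 replicate 3 or GLP-2 replicate 3. Without the 4 follicle-rich steers, and likewise with either score as a covariate, 0 genes of the list were called in edgeR, as were 0 of all genes (without those steers, 853 of all genes were higher and 1074 lower at an unadjusted p of at most 0.05). With the replicate block as a covariate, 1 gene rose (BCO2) and 1 fell (STRA6).

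Among the other genes of the list, the most abundant of its role was PLB1, a brush border retinyl ester hydrolase, for uptake (155 FPKM, log2 fold change 0.78, adjusted p = 0.101) and RDH16, a retinol dehydrogenase, for the oxidoreductases (491 FPKM, 0.80, adjusted p = 0.157). The smallest p among genes that did not pass was that of DHRS7, a short-chain dehydrogenase (0.69, adjusted p = 0.0574), followed by RDH10, which oxidizes retinol to retinal (0.38, adjusted p = 0.0745). In the other direction it was that of RARB, a retinoic acid receptor (-0.55, adjusted p = 0.157), and RDH5, a retinol dehydrogenase (-0.42, adjusted p = 0.233). RXRA, the leading nuclear receptor of the list at 34.3 FPKM, had 0.45 (adjusted p = 0.0766). RARRES1, a retinoic acid responsive gene at 208 FPKM, had 0.57 (adjusted p = 0.151). The retinal dehydrogenase ALDH1A3 (0.15, adjusted p = 0.785) and CYP2S1, a cytochrome able to break down retinoic acid (0.17, adjusted p = 0.611), had small values with adjusted p far from the threshold.

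**Figure D3:**
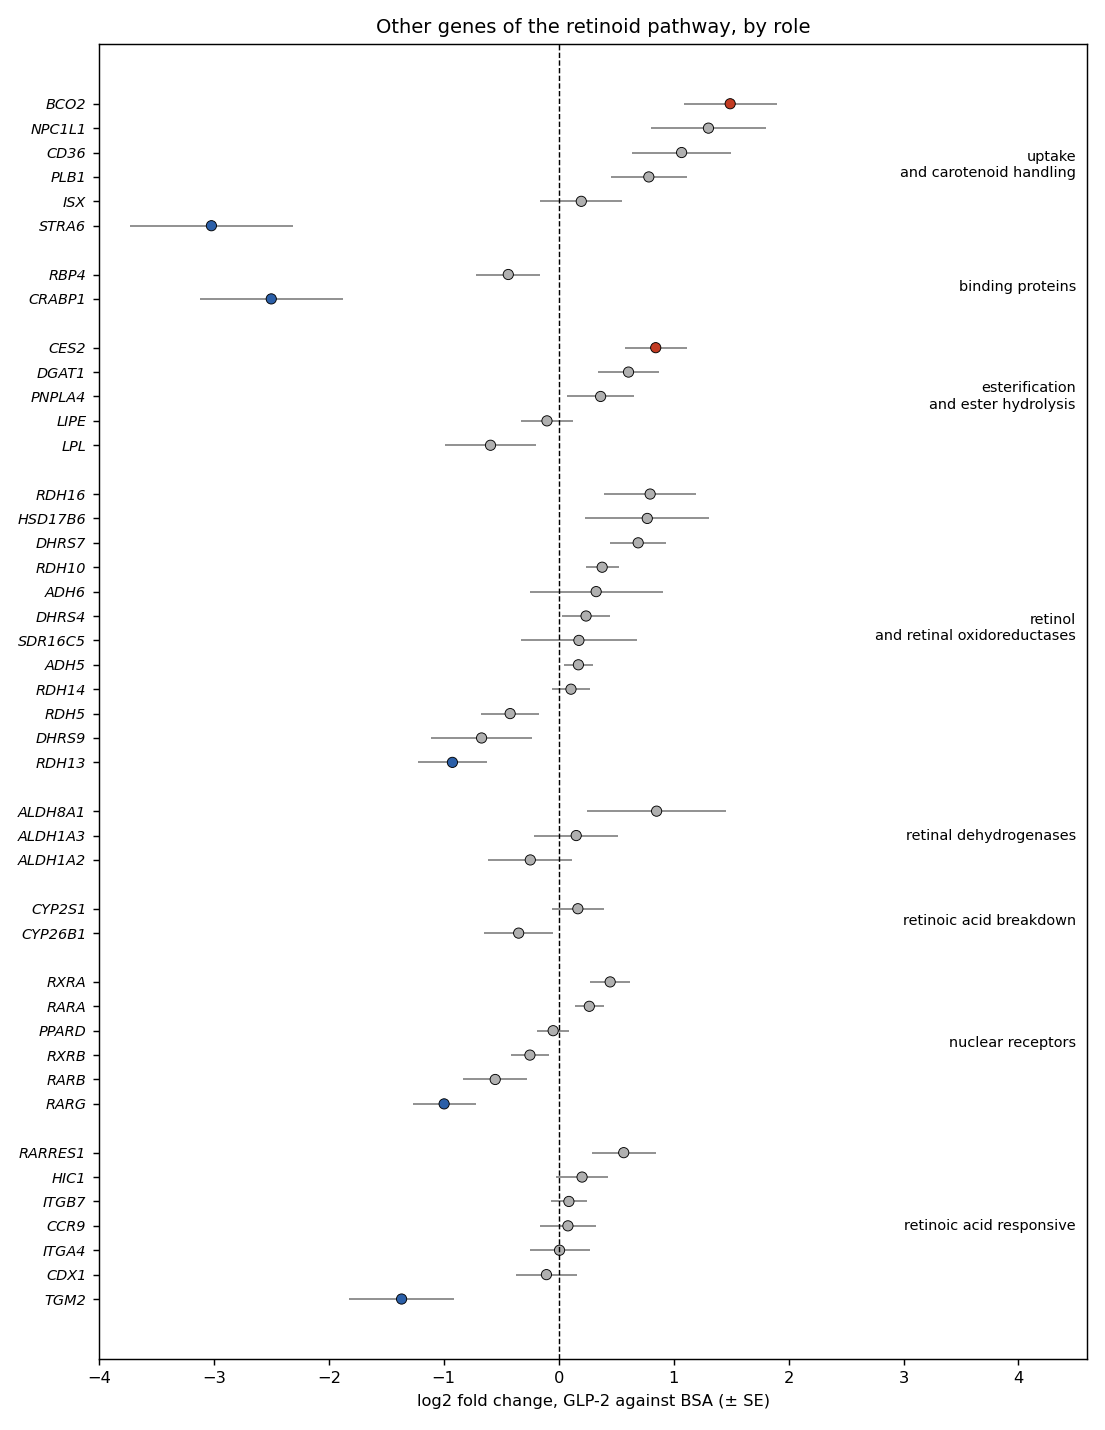
Log2 fold change (± SE), GLP-2 against BSA, of tested genes of the wider retinoid list, grouped by role, with 1 gene not shown. The 2 genes in red (BCO2 and CES2) rose, the 5 in blue (STRA6, CRABP1, RARG, RDH13 and TGM2) fell, and grey genes did not pass an adjusted p of 0.05.

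Postruminal casein infusion was a comparison on which the 8 transcripts had not been chosen. Between 12 casein infused and 10 water infused steers, 0 of the 8 were called by edgeR's quasi-likelihood test (0% of 14096 genes called), 0 had an unadjusted p of at most 0.05 (3.36% of all genes), and DESeq2 called 0 of them. BCO1 had the largest estimate, a log2 fold change of 0.91 (95% interval -0.87 to 2.68, adjusted p = 0.994). The narrowest intervals were those of DHRS3 (0.024, -0.39 to 0.44), RDH11 (0.27, -0.27 to 0.80) and ALDH1A1 (0.036, -0.54 to 0.62). For RBP2 the interval ran from -0.98 to 1.19 and for RETSAT from -0.89 to 1.24, so differences of these sizes are not excluded.

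Casein against control called 0 of the 8 transcripts (0% of 15086 genes, with 5.66% at an unadjusted p of at most 0.05), and casein + GLP-2 against GLP-2 called 0 (0% of genes, 2.64% unadjusted). No transcript of the 8 reached an unadjusted p of 0.05 in either contrast, and DESeq2 called 0 of the 8 in both. SCARB1 had a log2 fold change of -0.70 (95% interval -1.78 to 0.37) for casein against control and 0.93 (-0.16 to 2.02) for casein + GLP-2 against GLP-2. BCO1 had -1.15 (-3.36 to 1.07) and 1.61 (-0.69 to 3.90) in these contrasts.

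The casein × GLP-2 interaction called 0 of the 8 transcripts in edgeR (0% of 15086 genes) and 0 in DESeq2. At an unadjusted p of at most 0.05 it held 1 of the 8, beside 4.28% of all genes. That transcript was SCARB1, whose GLP-2 difference was larger with casein than with water by 1.63 on the log2 scale (95% interval 0.10 to 3.16). Its unadjusted p was 0.0355 and its adjusted p 0.996 in edgeR. BCO1 had an interaction of 2.75 (-0.43 to 5.93, adjusted p = 0.996), and RDH11, with the narrowest interval, 0.30 (-0.45 to 1.04).

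After treatment means were subtracted, 17 of the 28 pairs of the 8 transcripts correlated over the 22 steers by Pearson's r (permutation of steers within treatments, 100000 resamples, two-sided, adjusted p at most 0.05) and 19 by Spearman's rho. Such values are common in these libraries: the weakest of the 17 had r = 0.538, a size met or passed in either direction by 15.7% of all pairs of 13246 genes with a symbol. RBP2 and RETSAT were the closest pair, with r = 0.932 (adjusted p = 0.00028) and rho = 0.941, and r = 0.930 without the 2 steers farthest from the median. RBP2 and ALDH1A1 had r = 0.831, RBP2 and LRAT r = 0.809, and RETSAT and RDH11 r = 0.804. BCO1 followed RETSAT (r = 0.753, rho = 0.676), RDH11 (r = 0.738, rho = 0.762) and RBP2 (r = 0.733, rho = 0.709). DHRS3 followed LRAT (r = 0.662, rho = 0.684) and ALDH1A1 (r = 0.642, rho = 0.595), but had r = 0.149 with BCO1 (adjusted p = 0.615). No pair with SCARB1 passed, r running from -0.184 with ALDH1A1 to 0.277 with BCO1. Without the 4 follicle-rich steers, 13 pairs passed, and the pairs with SCARB1 had r from 0.224 to 0.470, of which 0 passed. With block means subtracted, 21 pairs passed, and 1 of the 7 pairs with SCARB1 did, their r running from -0.0061 to 0.584.

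The villus enterocyte score varied with the same steers. RETSAT had r = 0.985 with it (rho = 0.960, adjusted p = 0.00012 for r, of 24 pairs of transcript and score), RBP2 r = 0.943 (rho = 0.942), ALDH1A1 r = 0.806 (rho = 0.881), RDH11 r = 0.803 (rho = 0.832), BCO1 r = 0.785 (rho = 0.728) and LRAT r = 0.774 (rho = 0.802). DHRS3 had r = 0.429 (rho = 0.462, adjusted p = 0.0780 for r) and SCARB1 r = -0.069 (rho = -0.095, adjusted p = 0.746 for r). RETSAT and RBP2 thus followed the villus markers from steer to steer, while the value for SCARB1 was near 0. With the crypt and proliferation score, the 7 transcripts other than SCARB1 had r from -0.806 (RBP2) to -0.578 (RDH11), and SCARB1 had -0.102.

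**Figure D4:**
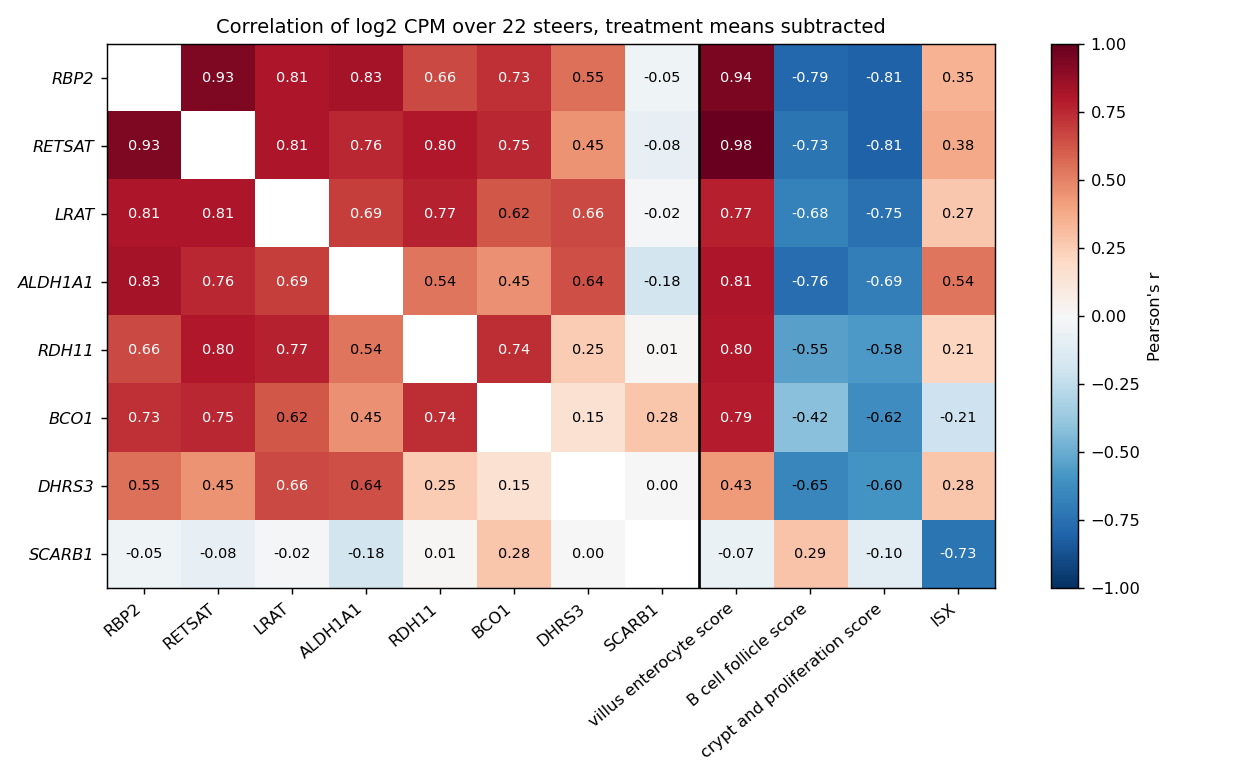
Pearson's r of log2 CPM over 22 steers with treatment means subtracted, between the 8 transcripts (left of the line) and with 3 marker scores and ISX (right of the line). The square from RBP2 to BCO1 is positive throughout. Outside it, the values of SCARB1 with the other transcripts run from -0.184 to 0.277. The value of SCARB1 with ISX, -0.732, becomes -0.293 with block means subtracted.

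SCARB1 was set beside ISX, the homeobox factor of the wider list, which was singled out because 0 of the 13245 genes with a symbol had a lower rho with SCARB1 within treatments. Its values are therefore descriptions, without a test: r = -0.732 and rho = -0.775 over 22 steers. The pattern followed the BW block. In all 4 treatments the steer of block 3 had the highest SCARB1, 107.8 CPM in control, 115.6 CPM in GLP-2, 55.7 CPM in casein and 251.5 CPM in casein + GLP-2, and these 4 steers had the lowest ISX of their treatments, 1.96, 8.04, 3.61 and 5.39 CPM. The highest ISX of the casein (34.0 CPM) and casein + GLP-2 treatments (26.1 CPM) was that of the block 4 steers, which had the lowest SCARB1 there (26.2 and 24.1 CPM). The lowest SCARB1 of the other treatments was not in block 4 but in control replicate 2 (21.6 CPM) and GLP-2 replicate 6 (22.5 CPM). With block means subtracted as well, SCARB1 and ISX had r = -0.293 and rho = -0.171, and 4310 genes then had a lower rho with SCARB1. Without the 4 steers of block 3, r was -0.568 over 18 steers. The relation was thus weaker once differences between blocks were removed, and what else the steers of a block shared is not given in the sources used here.

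The relations of the other transcripts to ISX also changed between settings. BCO1 had r = -0.209 with ISX within treatments, -0.488 without the 4 follicle-rich steers and 0.409 with block means subtracted. The remaining 6 had r from 0.215 (RDH11) to 0.538 (ALDH1A1) within treatments, and from -0.504 (DHRS3) to 0.023 (RETSAT) without the follicle-rich steers. With block means subtracted, their r ran from 0.140 (DHRS3) to 0.775 (RDH11). The signs thus depended on which steers and means entered. ISX itself had a log2 fold change of 0.20 with GLP-2 (SE 0.36, adjusted p = 0.715) and -0.071 with casein against water (adjusted p = 0.995).

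**Figure D5:**
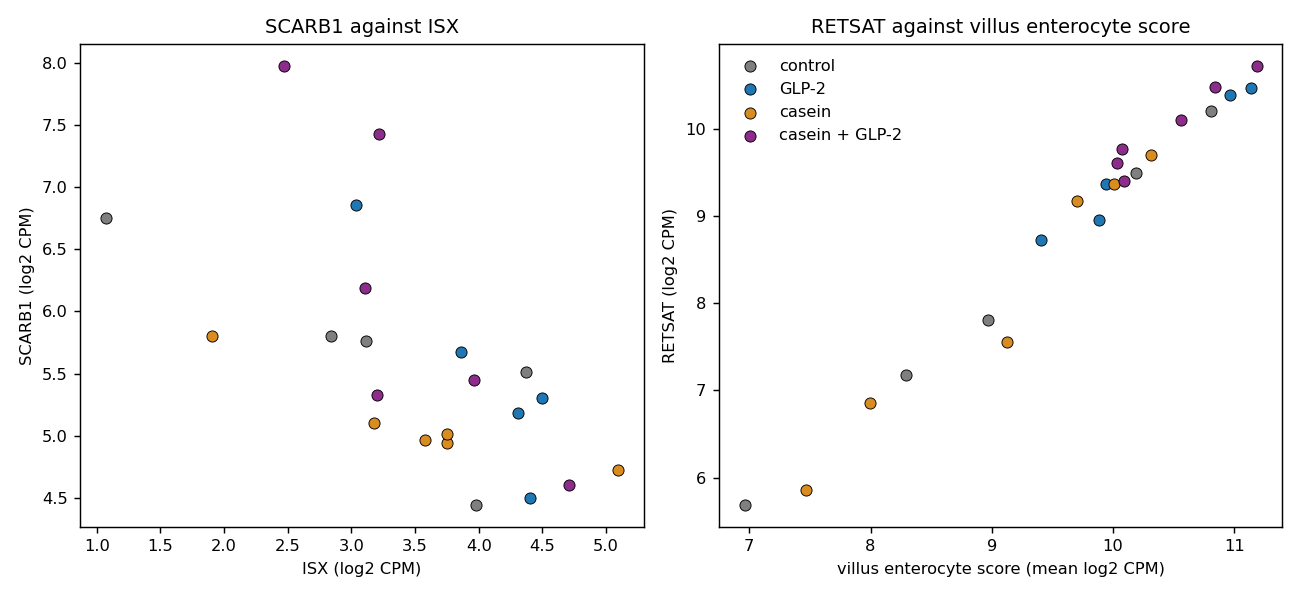
Left, log2 CPM of SCARB1 against log2 CPM of ISX, and right, log2 CPM of RETSAT against the villus enterocyte score (mean log2 CPM of 20 markers), each point being 1 of 22 steers coloured by treatment. SCARB1 is low where ISX is high (r = -0.732 within treatments, -0.293 with block means subtracted as well) and RETSAT climbs with the score (r = 0.985).

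The genes with the pattern most like each transcript were ranked by rho over the 22 steers, treatment means subtracted, among the same 13245 genes. RBP2 was closest to PC, pyruvate carboxylase (0.979), ADIPOR2, an adiponectin receptor (0.977), and ALDH3A2, a fatty aldehyde dehydrogenase (0.975). RETSAT was closest to BTD, biotinidase (0.974), SLC27A4, a fatty acid transport protein (0.974), and CYP2C87 (0.971). ALDH1A1 was closest to TMBIM4 (0.967), ALDH18A1 (0.957) and GDE1 (0.956), BCO1 to SNX25 (0.940), SIDT2 (0.929) and EZR (0.879), and LRAT to PAFAH2 (0.937), CPEB3 (0.922) and PLIN3 (0.913). RDH11 was closest to SFT2D2 (0.932), GALNT7 (0.924) and BCAR3 (0.921), and DHRS3 to ISOC2 (0.832), ABHD17A (0.828) and IL17RA (0.817). SCARB1 had the lowest such values, with PGLYRP2, a peptidoglycan-degrading amidase (0.706), ASL, argininosuccinate lyase (0.644), and B4GAT1 (0.630). These are descriptions over shared libraries, without a test.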

How the data were processed

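RNA of the jejunal mucosa of 22 steers was sequenced after poly-A selection and strand-specific library preparation. The authors report that RNA integrity varied between samples, and it did not enter any fit here. The authors aligned reads to ARS-UCD1.2 with HISAT2 (2.0.5) and counted them with featureCounts (1.5.0-p3), as the submitters' processing notes list; the deposited values are raw counts per gene. The authors also deposited FPKM values, used here to compare levels between genes and in an alternative test. Both tables give symbols and coordinates. A further steer of the GLP-2 treatment was not analysed here.

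Counts were tested in R 4.3.3 with edgeR 4.0.16 (filterByExpr with a minimum count of 10, TMM, quasi-likelihood test, Benjamini-Hochberg adjustment over all genes, threshold 0.05). The fits pooled by injection and by infusion held 13928 and 14096 genes, and 15086 genes entered the fit of 4 treatments. Log2 CPM used a prior count of 2. Alternatives were RLE and upper quartile normalization, no filter, DESeq2 1.42.0, limma 3.58.1 on log2(FPKM + 1) and log2(FPKM + 0.1) with a mean FPKM of at least 0.5, infusion, block or marker scores as covariates, and leaving out each steer. Leaving out the 4 follicle-rich steers, and subtracting block means or leaving out block 3 for ISX, were chosen after seeing the data. Steps were tested on simulated data.

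The 8 genes, the retinoid list and the marker lists were chosen with earlier results of these data known. Other genes are named if past the threshold, leading a role in mean FPKM, among the 2 smallest p not past it in a direction, or among the 3 most alike to a transcript; STRA6, CRABP1 and the rest of the list follow this rule, the result of 1 gene that it names is not reported here, and ISX and its rank were singled out after their values were seen. Replicate numbers are the BW blocks of the labels. With treatment means subtracted, steers of different treatments correlated over genes by 0.0072 on average where they shared a block (30 pairs) and by -0.00165 where they did not (151 pairs), and the block served as an alternative. Precision is limited by 5 to 6 steers a treatment, and intervals cover the spread between steers.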

Additional observations from a re-analysis of the deposited data

Results flagged for a closer look

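In 2 of 32 groups of 1 transcript and 1 treatment, a single steer lay far from the others by Dixon's test on log2 CPM, which by chance flags about 1 in 20 groups. SCARB1 of casein replicate 3 was at 5.80, with the nearest casein steer at 5.10, and this steer also had a B cell follicle score above 5. ALDH1A1 of casein + GLP-2 replicate 1 was at 10.6 (nearest 9.94), and that steer also had the highest RBP2, LRAT, RETSAT and DHRS3 of all 22, in CPM and in FPKM. Its library had the lowest TMM factor of the 22 (0.767), and a low factor raises CPM, so its place depends on the scaling.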

How the results depend on the processing

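The counts of the wider retinoid list, 2 higher and 5 lower with GLP-2, depended on the processing. They were 0 and 0 with the villus enterocyte score, the B cell follicle score, or without the 4 follicle-rich steers, 1 and 1 with the replicate block, 1 and 3 without a filter on low counts, 4 and 2 in limma on either FPKM scale, and 5 higher in DESeq2. Leaving out each steer gave 0 (without casein + GLP-2 replicate 1) to 7 higher (without control replicate 2) and 2 to 5 lower. In limma on log2(FPKM + 1), 1176 of all genes were higher and 817 lower, against 715 and 1166 in edgeR, and the cause was not tested. The RDH11 difference moved to 0.52 with the villus enterocyte score. Casein and interaction calls among the 8 transcripts stayed at 0 under all alternatives run, and the replicate block gave 21 correlated pairs in place of 17 and weakened the relation of SCARB1 to ISX from r = -0.732 to -0.293. No other count of the 8 transcripts moved by over 1.5 times under the block. With 5 to 6 steers a treatment, casein differences inside the intervals given are not excluded.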

Other observations

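At the low end of rho with the 8 transcripts, within treatments and among 13245 genes, stood the genes given here, named after their values were seen. DKC1, a pseudouridine synthase subunit, had the lowest rho with RBP2 (-0.945), where the lymphocyte receptor CD27 came next (-0.938), and was among the lowest 3 with LRAT (-0.894) and RETSAT (-0.955). POLD1, a DNA polymerase subunit, was lowest with RETSAT (-0.970), and RFC1, a replication factor subunit, with DHRS3 (-0.864). RDH13 of the wider retinoid list was among the lowest 3 with BCO1 (-0.893). These values rest on the same 22 libraries and carry no test.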
